A study of Homo sapiens with 12 samples.

Results

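The genes described here encode the constitutive subunits of the proteasome, taken as every gene whose symbol is PSMA, PSMB, PSMC or PSMD followed by a number, apart from the inducible subunit genes PSMB8, PSMB9 and PSMB10. Of the 60708 genes counted, 36 met this rule, namely 8 PSMA, 8 PSMB, 6 PSMC and 14 PSMD genes. They were measured by RNA sequencing of HCT116 cells, an established human colorectal carcinoma line labelled as wild type, after 24 h with oligomycin A (OA) or tunicamycin (TN). OA inhibits the mitochondrial ATP synthase, and TN blocks the N-linked glycosylation of proteins in the endoplasmic reticulum (ER). The study used TN as an ER stressor to set beside the mitochondrial stressor OA. The labels give 5 µg/mL for both stressors, whereas the methods of the study state a higher dose for OA, so the OA dose is uncertain. Each stressor had 3 treated libraries and 3 DMSO-treated libraries of its own, labelled as biological replicates 1 to 3, which makes 12 libraries in all.

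The proteasome is the protease that degrades proteins tagged with ubiquitin in the cytosol and nucleus. Its core particle is a stack of rings in which the alpha subunits (PSMA) gate the entry and the beta subunits (PSMB) line the chamber, and a regulatory particle built from ATPases (PSMC) and non-ATPase subunits (PSMD) binds, unfolds and feeds in the substrate. When proteasome activity is low, cells can raise the transcription of these genes together through NFE2L1 (also called NRF1), a transcription factor that is made in the ER membrane.

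The libraries held 9884124 to 24983573 counts on genes. The signal recognition particle RNA RN7SL1 took 6.02 to 8.11% of the counts in the DMSO-treated libraries and 8.40 to 17.9% in the treated ones. OA replicate 2 and TN replicate 1 stood apart in base composition. On a curve of log2 level against transcript GC content, genes of 38% GC lay at -1.01 in OA replicate 2 and at -1.15 in TN replicate 1, while the other 10 libraries ranged from -0.31 to 0.75. Libraries with the same replicate number deviated together, though only weakly for OA replicate 3 (correlation across genes 0.15). TN replicates 2 and 3 also followed each other's DMSO-treated library. Counts of calls from a fit with the replicate number as a block are given beside the fit without it. This pairing was taken from the data and is not stated by the labels. The epithelial markers EPCAM, CDH1, KRT8, KRT18 and KRT19 had at least 560 counts in every library, with a summed level of 4075 to 6047 CPM with DMSO and 4593 to 8485 CPM in treated cells. Leukocyte markers had at most 8 counts in any library (PTPRC and CD3E at most 1), endothelial markers at most 13 and fibroblast markers at most 4 except COL1A1 (15 to 124). Expression is given as CPM, the count of a gene scaled to the size of its library with edgeR's TMM factors.

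Messenger RNAs for most proteasome subunits were lower in stressed cells than in DMSO-treated cells. The median log2 fold change over the 34 members that had enough counts to test was -0.28 with OA (-0.18 without OA replicate 1 and -0.52 without OA replicate 2) and -0.67 with TN, against -0.022 and -0.031 over all genes tested. The log2 fold change was below 0 for 30 of 34 members with OA and 32 of 34 with TN, compared with 51.2% and 51.9% of all genes, and 30 of 34 were below 0 with both. The OA libraries were not alike. The median log2 level of the members, relative to the DMSO mean, was -0.56, 0.15 and -0.48 in OA replicates 1 to 3. OA replicate 2 thus showed no fall of the median. In TN replicates 1 to 3 this median was -0.34, -0.64 and -0.63. Few members passed the edgeR quasi-likelihood test on their own at a Benjamini-Hochberg adjusted p under 0.05, and none passed as higher. With OA only PSMD1 fell, at a background of 1.72% of 14681 genes, and with TN PSMB2, PSMC2 and PSMD1 fell, at a background of 3.34% of 14432 genes. With the replicate number as a block, 9 of 34 were called lower with OA and 21 of 34 with TN (background 15.0% and 15.3%). In bulk RNA, fewer cells that express a gene and less of its RNA per cell cannot be told apart.

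**Figure D1:**
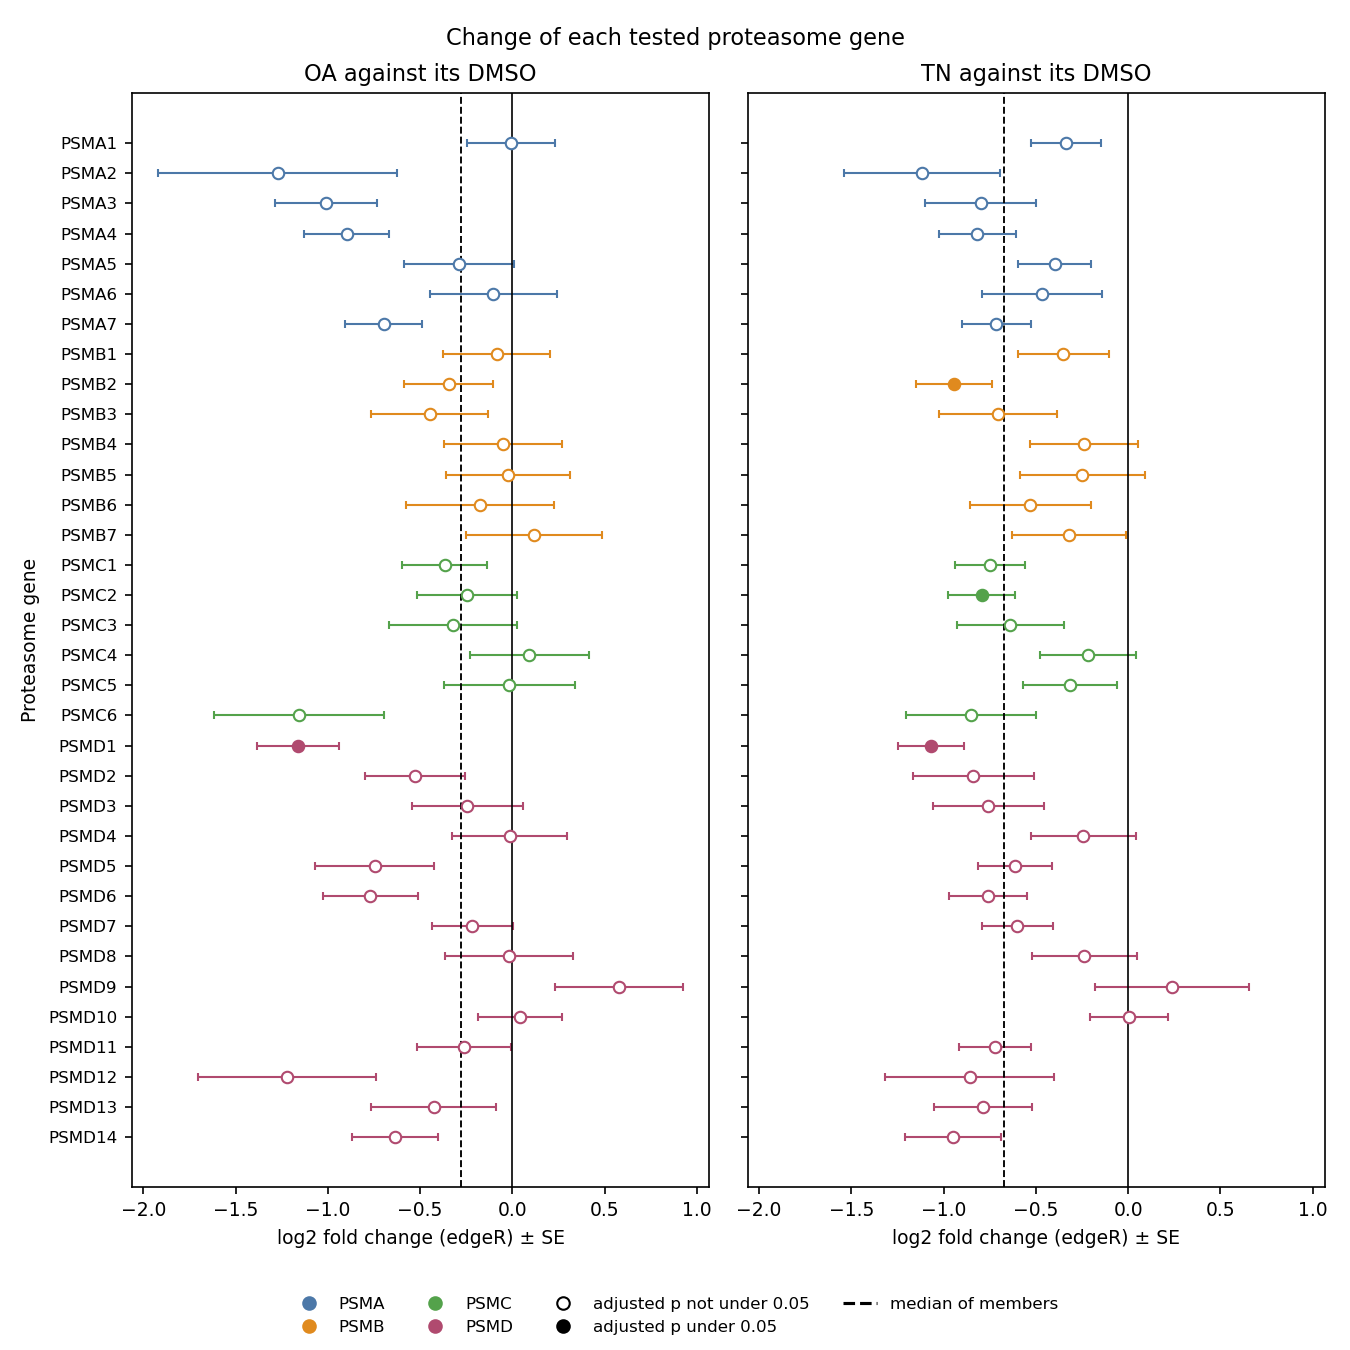
Log2 fold change (x axis, edgeR estimate ± SE, 3 treated against 3 DMSO-treated libraries) of each of the 34 tested proteasome genes (y axis), colored by class, with filled points for adjusted p under 0.05 and a dashed line at the median of the members. The points lie left of 0 for 30 genes with OA and 32 with TN, and the TN median (-0.67) lies further left than the OA median (-0.28).

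Counted together, the 36 genes took a smaller share of each treated library. In the OA experiment they held 0.781, 0.864 and 0.758% of all counts in the DMSO-treated libraries and 0.517, 0.581 and 0.520% in the OA-treated ones. In the TN experiment they held 0.841, 0.730 and 0.747% with DMSO and 0.480, 0.453 and 0.453% with TN. Treated and DMSO-treated libraries did not overlap in these shares of the raw totals in either experiment. The mean share was 0.801% ± 0.0560 (SD, n = 3) with DMSO and 0.539% ± 0.0358 with OA, and 0.773% ± 0.0599 with DMSO and 0.462% ± 0.0155 with TN. A two-sided exact permutation test gave p = 0.1 for each, which is the smallest p that 3 against 3 libraries allow. A share depends on the other RNAs in the library. After the 10 most abundant genes were left out of the total, the shares were 0.936% ± 0.0790 with DMSO against 0.710% ± 0.104 with OA. In the TN experiment they were 0.896% ± 0.0825 with DMSO against 0.589% ± 0.0503 with TN. OA replicate 2 then came near the DMSO-treated libraries, at 0.827% against 0.883% in DMSO-treated replicate 3, while OA replicates 1 and 3 were at 0.628 and 0.676%.

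**Figure D2:**
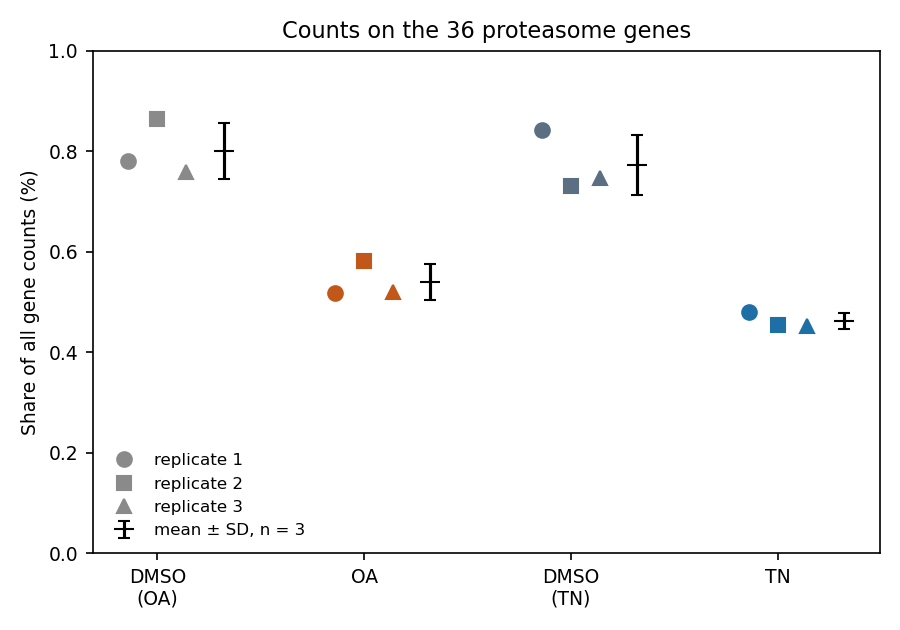
Share of all gene counts in percent (y axis) that fell on the 36 proteasome genes in each library (points, shape by replicate number) of the 4 groups (x axis), with the mean ± SD of 3 libraries beside them. All 3 OA libraries (0.517 to 0.581%) and all 3 TN libraries (0.453 to 0.480%) lie below their DMSO-treated libraries (0.730% and above).

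PSMD1 was the member with the lowest p in both experiments. It encodes the large scaffold subunit at the base of the regulatory particle and lies on the forward strand at chr2:231056845-231173116 (hg38). Its level was 381, 348 and 337 CPM in the DMSO-treated libraries of the OA experiment and 174, 134 and 169 CPM with OA. It was 409, 354 and 346 CPM with DMSO and 182, 169 and 178 CPM with TN. No treated library came near a DMSO-treated one, and the 3 TN libraries lay close together. PSMD1 fell by 1.16 on the log2 scale with OA (SE 0.22, adjusted p = 0.0330) and by 1.07 with TN (SE 0.18, adjusted p = 0.0167). The direction held in every pair of libraries with the same replicate number, and with the replicate block the adjusted p was 0.00240 with OA and 0.00119 with TN. These calls needed nearly all libraries. With OA the call held without OA replicate 1 or 2, and without any one of the other 4 libraries the adjusted p was 0.103 to 0.175. With TN it held without TN replicate 1, and without any one of the other 5 libraries it was 0.0541 to 0.0957.

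Among the alpha ring genes, all 7 that were tested had a log2 fold change below 0 with each stressor and none passed the test. The fit with the replicate block called 3 of 7 lower with OA and 4 of 7 with TN (background 15.0% and 15.3%). With an offset for transcript GC content 4 of 7 were below 0 with OA. The class median was -0.70 with OA and -0.71 with TN. PSMA4 had the lowest p of the class with TN and with OA. This alpha subunit gene lies on the forward strand at chr15:78540405-78552417. Its level was 316, 257 and 248 CPM with DMSO and 168, 128 and 144 CPM with OA, and 312, 314 and 345 CPM with DMSO and 146, 205 and 200 CPM with TN. The groups did not overlap in either experiment. The log2 fold change was -0.90 (SE 0.23, adjusted p = 0.0652) with OA and -0.82 (SE 0.21, adjusted p = 0.0585) with TN. With the replicate block the adjusted p was 0.00671 and 0.00551, and without OA replicate 1 or TN replicate 1 it was 0.0482 and 0.0297. PSMA3 (-1.01 and -0.80) and PSMA7 (-0.70 and -0.71) lay near PSMA4 with OA and TN. For PSMA2, PSMA6 and PSMA1, readthrough genes of the same strand in Gencode v44 cover 100%, 81.4% and 67.0% of the canonical exons, and their counts are uncertain. PSMA2 had 3 to 88 counts, PSMA6 44 to 139 and PSMA1 378 to 1072 counts per library, and the part of the overlap in these counts was not tested. PSMA8, the alpha subunit of male germ cells, had 1 count in 1 of 12 libraries and was not tested.

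The beta ring genes had a median log2 fold change of -0.084 with OA and -0.35 with TN. With 1 library left out it ranged from -0.41 to 0.091 with OA, and from -0.62 (without TN replicate 1) to -0.18 (without the DMSO-treated TN replicate 1) with TN. The classes were not tested against each other. The 3 catalytic subunits PSMB5 (chymotrypsin-like), PSMB6 (caspase-like) and PSMB7 (trypsin-like) had log2 fold changes of -0.023, -0.18 and 0.12 with OA and of -0.25, -0.53 and -0.32 with TN, and none passed the test. PSMB2, a beta subunit without catalytic activity, lies on the reverse strand at chr1:35599541-35641526. Its level was 168, 139 and 142 CPM with DMSO and 90.9, 71.6 and 71.3 CPM with TN, so that every TN library was below every DMSO-treated one. PSMB2 fell by 0.94 on the log2 scale with TN (SE 0.21, adjusted p = 0.0377), a call that held without TN replicate 1 and was lost without any one of the other 5 libraries (adjusted p = 0.0830 to 0.136). In the OA experiment it had 137, 158 and 127 CPM with DMSO and 89.5, 133 and 110 CPM with OA, where the groups overlapped, and its log2 fold change was -0.34 (SE 0.24, adjusted p = 0.422). PSMB11, the thymic beta subunit, had 2 counts in 1 of 12 libraries and was not tested.

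The 6 ATPase genes had a median log2 fold change of -0.28 with OA (-0.53 without OA replicate 2 and -0.14 without OA replicate 1) and -0.69 with TN. PSMC2 lies on the forward strand at chr7:103328570-103370346. It had 194, 176 and 201 CPM with DMSO and 111, 115 and 103 CPM with TN, with no overlap. PSMC2 fell by 0.79 on the log2 scale with TN (SE 0.18, adjusted p = 0.0426). The call was lost without any one library except TN replicate 1 (adjusted p = 0.105 to 0.195) and after an offset for transcript GC content (log2 fold change -0.43, adjusted p = 0.462), and with that offset and the replicate block together the adjusted p was 0.0125. With OA its levels were 122, 183 and 101 CPM against 169, 166 and 148 CPM with DMSO, and the highest value was that of OA replicate 2. The OA log2 fold change was -0.25 (SE 0.27, adjusted p = 0.612) and was 0.38 after the GC offset. PSMC6, on the forward strand at chr14:52707178-52728590, had the lowest p of the class with OA. It had 107, 58.4 and 75.0 CPM with DMSO and 57.4, 15.6 and 34.5 CPM with OA, and 80.7, 109 and 122 CPM with DMSO and 30.7, 69.0 and 72.7 CPM with TN. The treated libraries lay below the DMSO-treated ones in both experiments, with OA replicate 2 and TN replicate 1 lowest. The log2 fold change of PSMC6 was -1.16 (SE 0.46, adjusted p = 0.181) with OA and -0.85 (SE 0.35, adjusted p = 0.194) with TN. With the replicate block the adjusted p was 0.00371 and 0.00842. PSMC1 shares 83.2% of its canonical exons with NRDE2 on the opposite strand. PSMC5 (689 to 3340 counts) shares 13.7% with FTSJ3 (931 to 5370 counts), and the lid gene PSMD7 shares 51.6% with a gene of 13 to 58 counts, both also on the opposite strand. The strand setting of the counts was not stated, so the values of these 3 members are uncertain.

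**Figure D3:**
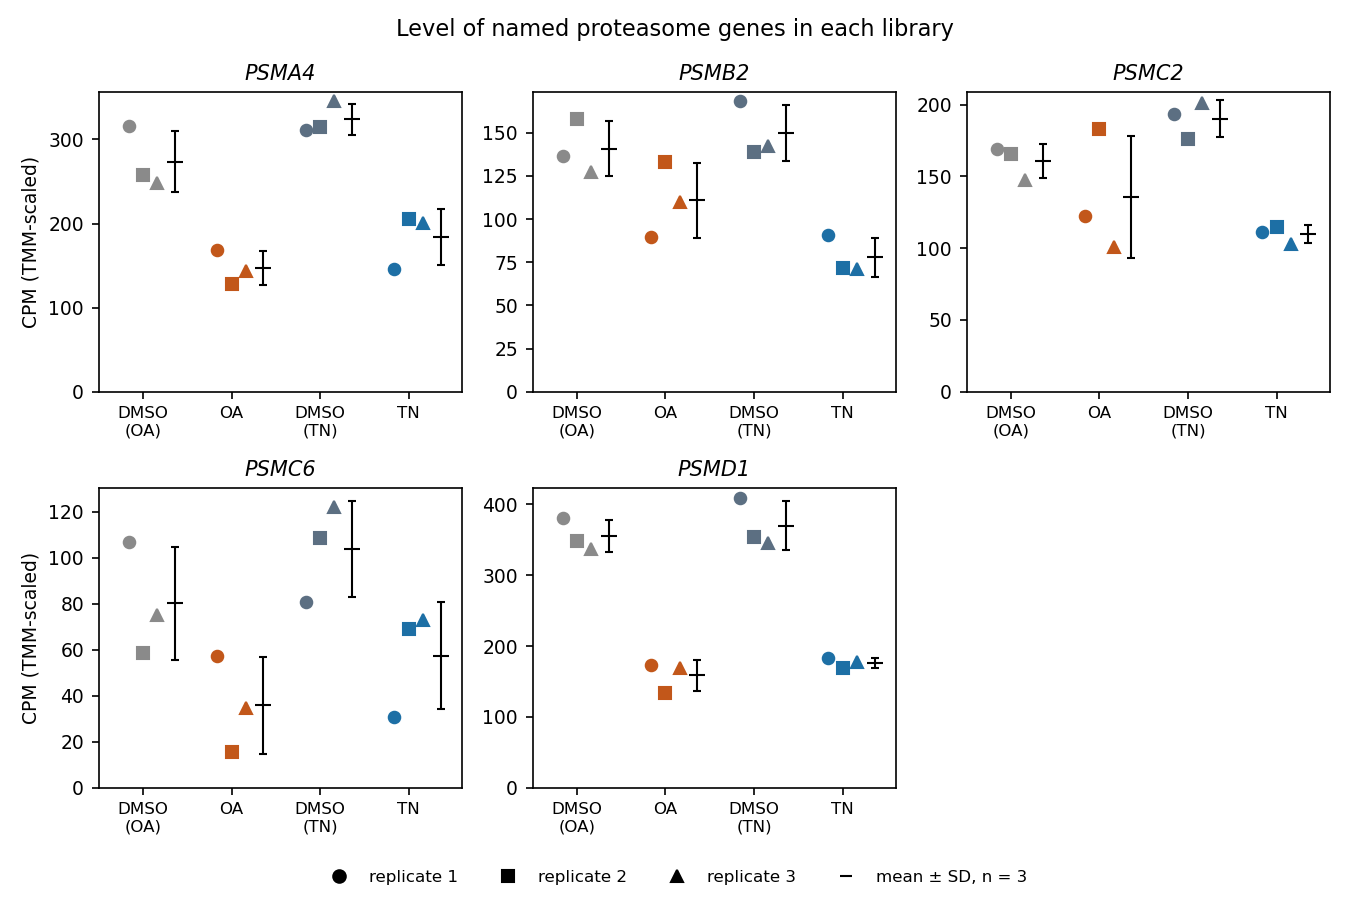
Level in CPM (y axis, TMM-scaled, starting at 0) of the 5 named proteasome genes in each library (points, shape by replicate number) of the 4 groups (x axis), with the mean ± SD of 3 libraries. PSMD1 is between 134 and 182 CPM in all 6 treated libraries and at or above 337 CPM in all 6 DMSO-treated ones, whereas PSMB2 and PSMC2 overlap between OA and DMSO.

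The 14 PSMD genes had a median log2 fold change of -0.34 with OA (-0.50 without OA replicate 2 and -0.19 without the DMSO-treated OA replicate 2) and -0.74 with TN, and include 3 assembly chaperones. The 8 lid subunits (PSMD3, PSMD6, PSMD7, PSMD8, PSMD11, PSMD12, PSMD13 and PSMD14) had a log2 fold change below 0 with each stressor, at a median of -0.34 with OA and -0.76 with TN. PSMD14, the deubiquitinase that removes ubiquitin from the substrate, was at -0.64 with OA and -0.95 with TN, and at 0.011 with OA after the GC offset. PSMD12, a lid scaffold subunit, had the lowest estimate of the lid with OA (-1.22) and was at -0.86 with TN, and its groups overlapped in both. PSMD2, the other large base subunit, was at -0.53 and -0.84. PSMD4, a ubiquitin receptor, was at -0.014 with OA and -0.24 with TN. Of the chaperones, which assist the assembly of the base and are not part of the finished particle, PSMD10 was at 0.042 and 0.0033 and PSMD9 at 0.58 and 0.24, while PSMD5 was at -0.75 and -0.61. PSMD9 had only 41 to 129 counts per library, and a readthrough gene of the same strand covers 28.8% of its canonical exons. Apart from PSMD1, none of the 14 passed the test. The fit with the replicate block called 5 of 14 lower with OA and 10 of 14 with TN (background 15.0% and 15.3%). No test of the chaperones against the structural subunits was made.

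Members whose 3 treated libraries all lay below the 3 DMSO-treated ones numbered 9 of 34 (26.5%) with OA, against 15.5% of all genes tested, and 19 of 34 (55.9%) with TN, against 16.8%. No member had all treated libraries above. Within pairs of the same replicate number, 18 of 34 members (52.9%) were lower in all 3 pairs with OA and 30 of 34 (88.2%) with TN, where 34.2% and 33.1% of all genes were. Higher in all 3 pairs were 0 of 34 with OA and 1 (PSMD9) with TN, where 27.8% and 27.1% of all genes were. With the replicate number as a block, edgeR called 9 of 34 members lower with OA (26.5%, background 15.0%) and 21 of 34 with TN (61.8%, background 15.3%), and none higher. The 9 with OA were PSMA3, PSMA4, PSMA7, PSMC6, PSMD1, PSMD5, PSMD6, PSMD12 and PSMD14. All 9 were also among the 21 with TN, which had in addition PSMA2, PSMB2, PSMB3, PSMB6, PSMC1, PSMC2, PSMC3, PSMD2, PSMD3, PSMD7, PSMD11 and PSMD13. Of the 3 catalytic subunits, this fit called PSMB6 with TN. The 2 experiments have no library in common. Across the 34 members the OA and TN log2 fold changes had a Pearson r of 0.84 and a Spearman rho of 0.89, compared with 0.80 and 0.78 across 14071 genes. This is a description across genes, which share libraries and base composition and are not independent replicates.

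The stressors were not shown to differ for any member. In the test of the OA change minus the TN change over all 12 libraries, 0 of 34 members and 0 of 15429 genes (0%) passed at an adjusted p under 0.05, and DESeq2 also called 0 genes. With the GC offset 1 gene passed (0.00649%), and with the offset and the replicate block 6 genes (0.0390%), none of them a member. SEL1L, an adaptor of the ligase that acts on NFE2L1, was 1 of the 6 (OA minus TN -1.26, adjusted p = 0.0317), and was at -1.51 (adjusted p = 1.00) in the fit without either. At an unadjusted p under 0.05 there were 348 genes and 0 members. The median difference over the members was 0.20, and 24 of 34 were above 0, which means a higher value with OA than with TN. The lowest p was that of PSMB2, with a difference of 0.52 (SE 0.27, unadjusted p = 0.0771, adjusted p = 1.00). The median difference was -0.045 without OA replicate 2, -0.034 without the DMSO-treated TN replicate 1 and 0.49 without TN replicate 1, so its sign rested on single libraries.

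Transcript GC content moved with the members' levels in single libraries. The 15 tested members under 45% GC had a median log2 level, relative to the DMSO mean, of -0.44, -1.08 and -0.75 in OA replicates 1 to 3, while the 19 members of higher GC were at -0.59, 0.30 and -0.35. OA replicate 2 was thus the lowest library for members of low GC and the highest for those of high GC. With TN the members of low GC were at -1.01, -0.62 and -0.57 and those of high GC at -0.13, -0.68 and -0.69, where TN replicate 1 stood apart in the same way. In TN replicates 2 and 3 both sets were low together. Once each library's GC curve was taken out as an offset, the median over the members was -0.23 with OA and -0.52 with TN (all genes 0.024 and 0.015). The test then called 5 of 34 members lower with OA (background 7.61%) and 15 of 34 with TN (background 10.6%), and none higher. With the offset and the replicate block together it called 10 (background 12.8%) and 25 (background 19.1%), and the 25 with TN held all 3 catalytic subunits (adjusted p = 0.0147 for PSMB5, 0.000946 for PSMB6 and 0.0131 for PSMB7). With OA the offset turned the sign of 8 members, of which PSMA1, PSMA5, PSMA6, PSMB1, PSMC2 and PSMD14 came to lie above 0 and PSMB7 and PSMC4 below 0. Of the members called with the block, PSMD5, PSMD6 and PSMD14 were not called with OA, and PSMA2 was not called with TN, once the offset was added (adjusted p = 0.115, 0.162, 0.957 and 0.0512). PSMD1 was called in all of these fits.

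**Figure D4:**
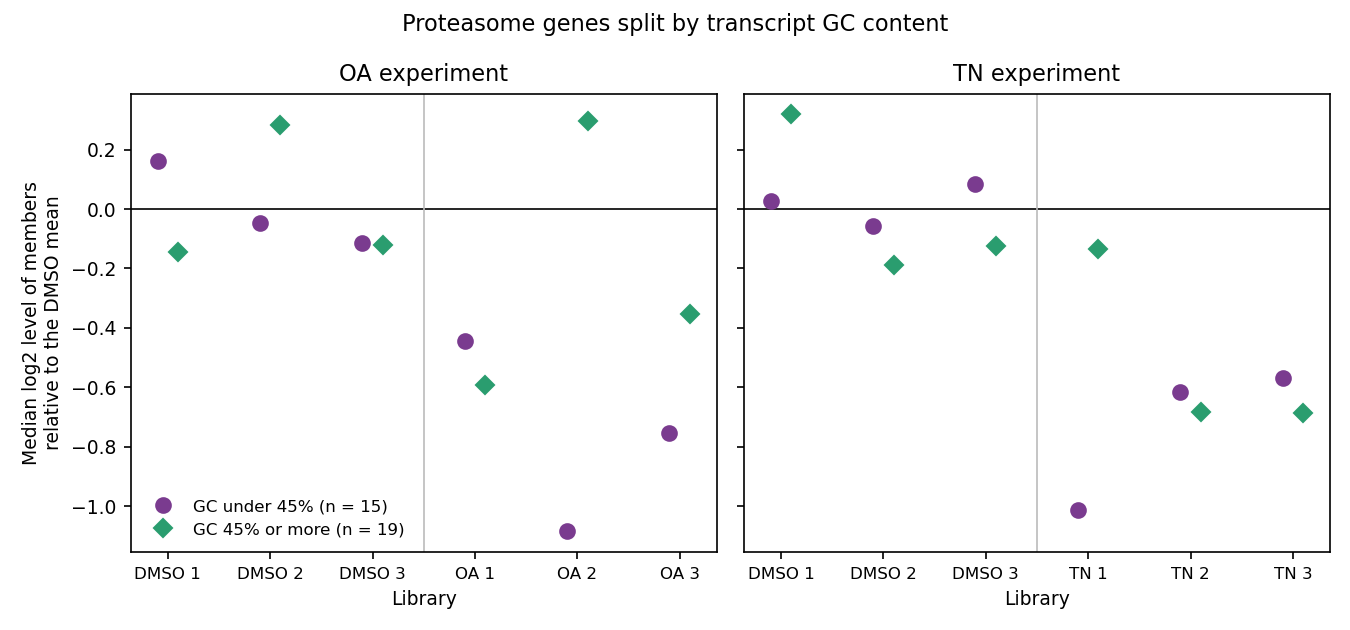
Median log2 level relative to the mean of the DMSO-treated libraries (y axis) of the tested proteasome genes with transcripts under 45% GC (circles, 15 genes) and of 45% GC or more (diamonds, 19 genes) in each library (x axis) of the OA and TN experiments. The sets part most in OA replicate 2 (-1.08 and 0.30) and TN replicate 1 (-1.01 and -0.13), and lie together between -0.57 and -0.69 in TN replicates 2 and 3.

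NFE2L1, the regulator described above, was higher in cells under either stressor. It had 114, 131 and 127 CPM with DMSO and 297, 645 and 321 CPM with OA, and 132, 111 and 106 CPM with DMSO and 404, 312 and 300 CPM with TN. All treated libraries were above all DMSO-treated ones. NFE2L1 rose 3.40-fold with OA (log2 fold change 1.76, SE 0.34, adjusted p = 0.0331) and 2.91-fold with TN (1.54, SE 0.21, adjusted p = 0.00901), where 2.76% and 3.65% of all genes tested were called higher. The protein is extracted from the ER membrane by the SYVN1-SEL1L ligase complex and VCP, freed of glycans by NGLY1, cleaved by DDI2 and paired with a small MAF protein on DNA. Of the 11 genes of this route, 3 rose with OA (NFE2L1, MAFF and MAFG), 3 rose with TN (NFE2L1, SEL1L and SYVN1) and none fell in the fit without the replicate block. These are RNA levels, and the NFE2L1 protein, its processing and its activity were not measured.

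Among the small MAF genes, MAFF had 9.81, 15.7 and 9.86 CPM with DMSO and 28.6, 112 and 41.5 CPM with OA, with OA replicate 2 well above the others. MAFF rose with OA (log2 fold change 2.36, SE 0.52, adjusted p = 0.0465), as did MAFG (1.22, SE 0.27, adjusted p = 0.0471). With TN they were at 1.10 and 0.85 (adjusted p = 0.145 and 0.10). SEL1L, the adaptor of the ligase, had 46.1, 70.8 and 74.3 CPM with DMSO and 191, 434 and 421 CPM with TN. It rose 5.47-fold with TN (log2 fold change 2.45, SE 0.37, adjusted p = 0.0117) and was at 1.02 with OA (adjusted p = 0.139). SYVN1, the ligase, rose with TN (1.53, SE 0.35, adjusted p = 0.0421) and was at 1.79 with OA (adjusted p = 0.0636). With the replicate block SYVN1 and SEL1L also passed with OA (adjusted p = 0.00383 and 0.00519), as did MAFG with TN (adjusted p = 0.00709). With the block DDI2, the protease of the route, passed as lower with both stressors, at a log2 fold change of -0.72 (adjusted p = 0.0499) with OA and -0.78 (adjusted p = 0.0154) with TN. Without single libraries the adjusted p of NFE2L1 ranged from 0.0125 to 0.173 with OA and from 0.00257 to 0.0676 with TN. The OA calls of MAFF and MAFG each held in 2 of these 6 fits (adjusted p up to 0.208 and 0.214), and the log2 fold change of MAFF was as low as 1.55. The TN call of SEL1L held in 2 of 6 (adjusted p up to 0.0728) and that of SYVN1 in 1 of 6 (adjusted p up to 0.148).

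Of the 6 assembly chaperone genes outside the PSMD family, 5 had a log2 fold change below 0 with each stressor, at a median of -0.45 with OA and -0.42 with TN. With the GC offset the median was -0.19 with OA, with 4 of 6 below 0, and -0.45 with TN, with 5 of 6 below 0. PSMG2 moved from -0.50 to -0.078 with OA under that offset. PSMG1, which with PSMG2 starts the alpha ring, had 97.3, 83.8 and 87.0 CPM with DMSO and 45.6, 52.0 and 49.9 CPM with TN. It fell by 0.86 on the log2 scale with TN (SE 0.19, adjusted p = 0.0374), and was the only one of the 6 that was called. The call was lost with the GC offset (-0.67, adjusted p = 0.0507) and did not hold in 5 of 6 fits without 1 library (adjusted p up to 0.173). With the replicate block PSMG1 passed with TN (adjusted p = 0.00569), as it did with the offset and the block together (adjusted p = 0.00128). With OA it had 47.8 to 51.0 CPM against 84.3 to 92.4 CPM with DMSO, at -0.83 (SE 0.21, adjusted p = 0.0654, with the replicate block 0.00921). POMP, which guides the beta ring onto the alpha ring, had 192 CPM ± 9.66 (SD, n = 3) with DMSO and 112, 179 and 121 CPM with OA, and 229, 197 and 201 CPM with DMSO and 121, 124 and 136 CPM with TN. Its treated libraries lay below the DMSO-treated ones in both experiments. The log2 fold change of POMP was -0.49 (SE 0.25, adjusted p = 0.283) with OA and -0.71 (SE 0.18, adjusted p = 0.0593) with TN, where the adjusted p with the replicate block was 0.00914. With the GC offset its OA log2 fold change was 0.089. PAAF1, an ATPase chaperone, was at 0.89 with OA (adjusted p = 0.197), and ranged from 0.41 to 1.09 with 1 library left out.

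**Figure D5:**
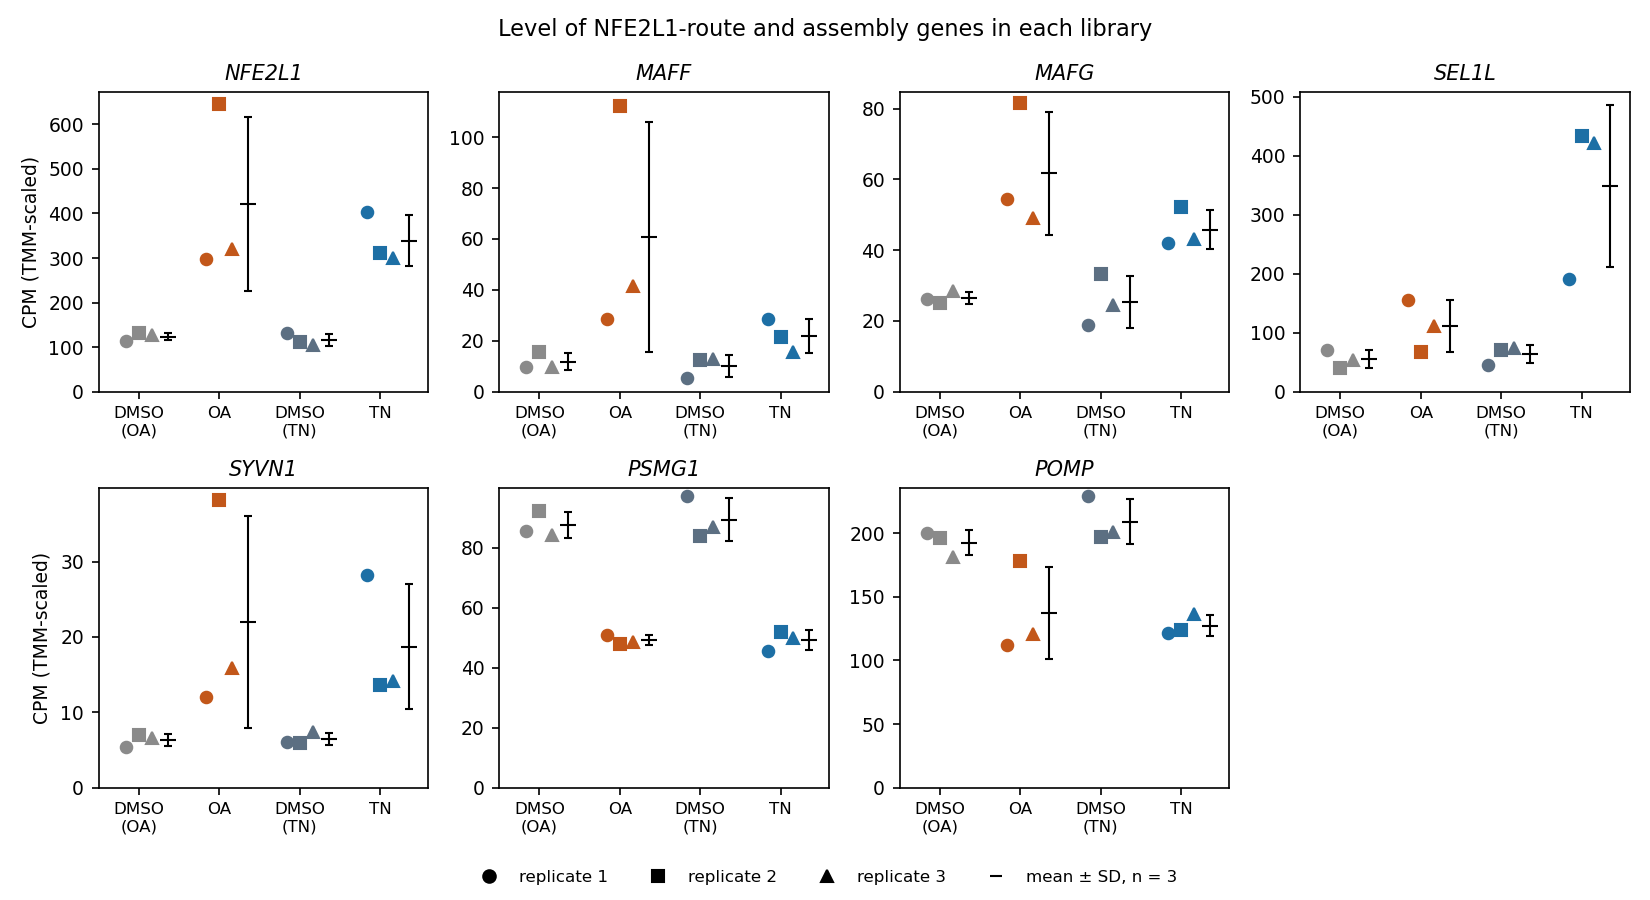
Level in CPM (y axis, TMM-scaled, starting at 0) of NFE2L1, 4 other genes of its route and the assembly genes PSMG1 and POMP in each library (points, shape by replicate number) of the 4 groups (x axis), with the mean ± SD of 3 libraries. NFE2L1 is at 106 to 132 CPM with DMSO and at 297 CPM or more in treated cells, while PSMG1 and POMP lie lower in treated cells than with DMSO.

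The other genes around the proteasome gave no call in the fit without the block. Of the 4 further regulatory particle subunits and deubiquitinases all had a log2 fold change below 0 with each stressor, at a median of -0.44 with OA and -0.68 with TN. UCHL5 was at -1.25 and SEM1 at -0.36 with OA, and the ubiquitin receptor ADRM1 was at -0.69 and the deubiquitinase USP14 at -0.66 with TN. With 1 library left out, UCHL5 ranged from -2.26 to -0.70 and SEM1 from -0.48 to -0.22 with OA. In the same fits with TN, ADRM1 ranged from -0.96 to -0.57 and USP14 from -0.83 to -0.41. The 6 caps and inhibitors had medians of 0.052 and -0.031, with ECPAS at 0.47 and 0.22 and the nuclear activator gene PSME3 at -0.57 and -0.64. The 6 genes of ubiquitin and its activation had medians of 0.24 and 0.37, with RPS27A, which encodes ubiquitin fused to a ribosomal protein, at 0.70 and 0.57. The 7 substrate shuttle and nuclear import genes had medians of -0.044 and -0.17. With the GC offset the medians, in the order of these lists, were -0.25, -0.046, 0.082 and 0.47 with OA. With TN they were -0.56, -0.029, 0.30 and -0.016. Of the 7 shuttle and import genes, 2 were then below 0 with OA, against 5 without the offset. Of the 4 further regulatory particle genes, 3 were then below 0 with each stressor. AKIRIN2, which carries proteasomes into the nucleus, was at 1.05 (adjusted p = 0.0671) with OA, and UBQLN1 and UBQLN2 were both at -0.39 with TN. With the GC offset SEM1 was at 0.37 with OA and UBQLN1 at -0.019 with TN. With the replicate block UCHL5 (adjusted p = 0.00567 with OA and 0.00888 with TN) and PSME3 (0.0429 and 0.0253) passed as lower with both stressors, and ADRM1 (0.0108) and USP14 (0.0436) passed as lower with TN. In the same fit RPS27A passed as higher with both (0.0415 and 0.00729) and AKIRIN2 with OA (0.00805). With the replicate block, 15 of 43 genes of all lists were called with OA (9 higher, 6 lower) and 14 with TN (6 higher, 8 lower), compared with 3 and 4 without it. These shares of 34.9% and 32.6% stand beside 26.7% and 27.1% of all genes tested that the block called in either direction.

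NFE2L1 binds the antioxidant response element, whose core reads TGACNNNGC, with a further A at its end in the longer form. RefSeq promoter windows (GRCh38.p14), from 250 bases before to 50 bases after the start, were at hand for 31 of the 36 members, and PSMA7, PSMB1, PSMB6, PSMB7 and PSMD4 had none. These members have 37 windows. On either strand the core was found in 9 of the 37 and the longer form, which contains the core, in 7, while 13.3% and 3.18% of 35116 promoter windows hold them. In 7 members the core ended before the RefSeq start, and in 5 of these it had the longer form. The CCAAT box was found in 17 of the 37 windows and in 34.6% of all windows. The 5 members with the longer form upstream are shown with 30 bases each, on the strand of the gene, with the core in capitals (reading GCNNNGTCA where it lies on the other strand), because they are the members in which this element stands before the RefSeq start. Apart from PSMB3 that start differs from the Gencode one, and for PSMA4 and PSMC5 the bases shown lie inside the Gencode gene.
PSMA4: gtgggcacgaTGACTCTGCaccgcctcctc
PSMB3: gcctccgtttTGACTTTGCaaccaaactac
PSMC5: gaccggatctGCTGTGTCAgcgccgccctc
PSMD9: cgctactcctGCCGGGTCAccacaggcgca
PSMD12: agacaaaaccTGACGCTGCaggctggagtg

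The windows lie at chr15:78540650-78540679 (PSMA4, forward strand), chr17:38752627-38752656 (PSMB3, forward), chr17:63827654-63827683 (PSMC5, forward), chr12:121888631-121888660 (PSMD9, forward) and chr17:67366723-67366752 (PSMD12, reverse). The first base of the core lies 126, 104, 57, 149 and 165 bases before the RefSeq start. These 5 genes ranged widely with OA. PSMD12 and PSMA4 had log2 fold changes of -1.22 and -0.90 with OA, PSMB3 was at -0.45, PSMC5 at -0.016 and PSMD9 at 0.58. With TN the range was narrower, with PSMD12 at -0.86, PSMA4 at -0.82, PSMB3 at -0.71, PSMC5 at -0.32 and PSMD9 at 0.24. Members with the core had a median of -0.45 with OA and -0.71 with TN, and members without it -0.31 and -0.74. A match of these letters is a description and does not show binding.

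Levels between the members differed widely in DMSO-treated cells. Per kilobase of canonical transcript, the 3 highest members were the beta subunit genes PSMB3, PSMB1 and PSMB4, at 557, 534 and 512 CPM per kilobase in the OA experiment and 521, 517 and 483 in the TN experiment. PSMA7, PSMB5, PSMB6 and PSMB7 followed in both, at 387, 365, 317 and 294 CPM per kilobase in the OA experiment. PSMD1 was at 107 and 111 CPM per kilobase, and the chaperone PSMD5 at 11.8 and 13.8. Of the members not touched by readthrough genes, PSMD5 was thus the lowest one tested.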

How the data were processed

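RNA was sequenced from 12 HCT116 cultures with a stranded total-RNA kit per the labels. The authors aligned reads to hg38 with STAR and deposited 2 tables of raw gene counts with Gencode identifiers, 1 per experiment. The strand column used is not given in the sources used here. Their DESeq2 tables (mean level, fold change, SE, statistic, p and adjusted p) were not used.

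Each stressor was compared with its own DMSO libraries by edgeR 4.0.16 (R 4.3.3): TMM scaling, filterByExpr with a minimum count of 10, quasi-likelihood test, Benjamini-Hochberg adjustment over all tested genes, call at adjusted p under 0.05. The difference between stressors was tested in 1 fit of 12 libraries. P-values measure the spread between the labelled biological replicates.

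Same-numbered treated and DMSO libraries deviated together (r = 0.74, 0.63 and 0.15 for OA, 0.72, 0.52 and 0.55 for TN), so the numbers were taken as pairs, from this check and not from a statement of the labels. The check does not single out the partner of every library, as TN replicates 2 and 3 also followed each other's DMSO library (r = 0.54 and 0.48) and OA replicate 1 had r = 0.18 with DMSO replicate 3. No library repeated another (least chi-square per gene 6.25). The GC offset was a loess curve of log2 level on transcript GC (Gencode v44, span 0.3), fitted per library. Alternatives were DESeq2 1.42.0, other scalings and filters, 1 fit of all libraries, the block, the offset and leaving out each library. Scripts were tested on simulated counts.

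Per-library values are given for members called in either comparison or with the lowest p of their class, and for PSMA8 and PSMB11. From the pathway lists NFE2L1, POMP, every gene called and at most 2 of lowest p per list are named, apart from list genes that are not reported here. The members and lists were chosen with earlier results of these data known. Reads that map to several places, as with processed pseudogenes, were not examined.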

Additional observations from a re-analysis of the deposited data

How the results depend on the processing

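The members' median stayed below 0 in every fit run, from -0.18 (without OA replicate 1) to -0.53 (scaled to library totals) with OA and from -0.52 to -0.85 with TN. Scaling to library totals gave the -0.85 with TN and moved the median of all genes to -0.23 with OA and -0.18 with TN. With that scaling 62.5% of all genes lay below 0 with OA and 61.3% with TN. The number of members called, all lower, depended on the fit. With OA it was 1, and 3 with DESeq2, library totals, no filter or 1 fit of 12 libraries, 5 with the GC offset, 9 with the replicate block and 10 with both. With TN it was 3, and 8 with DESeq2 or 1 fit of 12 libraries, 10 with library totals, 15 with the GC offset, 21 with the replicate block and 25 with both. Shares of all genes called are not given for library totals, no filter or 1 fit of 12 libraries. Counts from those fits therefore lack a background. Of all genes, 1.72% were called lower with OA and 3.34% with TN. The shares called lower were 4.31% and 5.31% with DESeq2 and 7.61% and 10.6% with the GC offset. They were 15.0% and 15.3% with the replicate block and 12.8% and 19.1% with both. In either direction 4.48% and 6.99% of all genes were called, and 10.4% and 10.6% with DESeq2. The shares in either direction were 16.1% and 21.8% with the GC offset, 26.7% and 27.1% with the replicate block and 25.7% and 37.4% with both. Leaving out 1 library gave 0 to 4 members with OA (4 without OA replicate 1) and 0 to 15 with TN (15 without TN replicate 1). Shares of all genes called are not given for these fits either, so these counts also lack a background. Without 1 library the medians ranged from -0.52 to -0.18 with OA and from -0.74 to -0.59 with TN.

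Of the 43 pathway genes, those called in either direction numbered 3 with OA, and 6 with DESeq2 or 1 fit, 5 with no filter, 8 with the GC offset, 15 with the replicate block, 14 with both and 0 to 4 without 1 library. With TN they numbered 4, and 7 with library totals, 8 with the GC offset, 14 with the replicate block, 21 with both and 0 to 9 without 1 library. The GC offset called 18.6% of the 43 in each experiment, near the 16.1% (OA) and 21.8% (TN) of all genes. With both, the shares were 32.6% with OA and 48.8% with TN, beside 25.7% and 37.4% of all genes. The counts with library totals, no filter, 1 fit of 12 libraries or 1 library left out lack a background here too. The OA log2 fold change of PSMC2 was 0.38 with the GC offset and 0.18 with both, and the PSMB median with OA was 0.091 without DMSO-treated OA replicate 2 and 0.088 without OA replicate 1 (-0.41 to 0.091 over the libraries left out). The median OA-minus-TN difference ranged from -0.045 without OA replicate 2 to 0.49 without TN replicate 1 (-0.034 without DMSO-treated TN replicate 1). The difference between the stressors gave 0 members in every fit, and the replicate block removed no call of a member or of a pathway gene. The cause of these shifts was not tested. Depth limits PSMA2, PSMA6, PSMD9, PSMA8 and PSMB11, and leaving the readthrough members out, an alternative chosen after seeing the data, gave medians of -0.31 and -0.71.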

Other observations

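The inducible core subunits, which replace the catalytic ones under interferon, were not members. PSMB9, the inducible counterpart of PSMB6, had 13.0, 8.50 and 12.6 CPM with DMSO and 5.60, 5.09 and 6.84 CPM with OA. In the TN experiment it had 10.7, 76.1 and 78.7 CPM with DMSO and 8.01, 20.6 and 23.1 CPM with TN. Replicate 1 of the TN experiment was thus the lowest library for PSMB9 both with DMSO and with TN, and in each pair the TN library was below its DMSO-treated partner. None of the 3 inducible subunits passed the edgeR test. The log2 fold change of PSMB9 was -0.96 (adjusted p = 0.114) with OA and -1.68 (adjusted p = 0.208) with TN, and with the replicate block the adjusted p was 0.0222 and 0.00783. PSMB8 had 0 to 42 counts per library and was at 0.82 with OA and -1.93 with TN, without passing.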
